A study of Mus musculus with 7 samples.

Results

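Ltf, C3, Lcn2, Muc1, Muc4, Pigr and Olfm1 encode proteins that uterine epithelium secretes or carries on its luminal surface, and most of them are known as estrogen-responsive. They were chosen by gene symbol as a group of estrogen-induced epithelial secretions and mucins. The 7 genes are 7 of the 23282 named rows of the tables, and all 7 were among the 15388 genes tested after the filter on low counts.

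RNA of whole mouse uterine tissue was sequenced with the QuantSeq method, in which each polyadenylated transcript gives a short tag from its 3′ end. Recombinant human CXCL12, a chemokine, had been infused into one uterine horn of C57BL/6 female mice and saline into the other horn. There were 2 saline libraries, 2 of CXCL12 collected 3 days after infusion (Day 3) and 3 collected after 8 days (Day 8). No genetic change is labelled for any group. For the saline libraries no day is labelled, and for no library a stage of the estrous cycle or an animal, so p-values measure only the spread between these samples, which may be technical.

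In the uterus, estrogen acts through the receptor ESR1, drives growth and secretion of the epithelium and coats the lumen with antimicrobial proteins and mucins. Progesterone acts through PGR, restrains that response and prepares the tissue for implantation. Membrane mucins such as MUC1 form a barrier on the luminal surface that can hinder embryo attachment.

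The 6 tables of read counts held between 6908790 and 12308982 counts, and 3 counts corresponded to between 0.244 and 0.434 CPM (counts per 1000000 counts of the library). The table of Day 3 replicate 1 held log2 values of normalized counts. Day 8 replicate 1 was placed by its label, but its table is named as a Day 3 library. Over all tested genes it correlated at a Pearson r of 0.951 and 0.953 with the Day 3 libraries and at 0.898 and 0.906 with the other Day 8 libraries. The Day 8 tests of Lcn2, Muc1, Muc4, Pigr and Olfm1 and the counts of called members are therefore also given without it. So are most counts of the estrogen-induced and progesterone-induced lists. Other Day 8 results were computed with it unless stated otherwise. Epithelial markers were present in every library, with summed levels of 634 to 1473 CPM over 12 markers. These and the later CPM of genes and lists are scaled by TMM factors, which set the bulk of genes to the same level in each library. Ovarian markers summed to 5.28 and 7.57 CPM in the Day 3 libraries, 167 and 1050 CPM in the saline libraries, and 95, 3638 and 9.93 CPM in Day 8 replicates 1 to 3. The part of ovarian tissue in the results was not tested.

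Promoters of 5 of the genes are shown because Lcn2, Muc1 and Muc4 varied together over the libraries, while Pigr varied the opposite way and Ltf followed neither. Sequences and start sites are those of RefSeq, build GRCm38.p6, from 250 bases before to 50 bases after the start, written 5′ to 3′ on the gene's own strand. Capitals mark an estrogen response element half-site (GGTCA, or TGACC on the other strand) and, in Pigr alone, also a progesterone response element half-site (TGTTCT, there as AGAACA on the other strand).
Lcn2 promoter, chr2:32387690-32387989, minus strand: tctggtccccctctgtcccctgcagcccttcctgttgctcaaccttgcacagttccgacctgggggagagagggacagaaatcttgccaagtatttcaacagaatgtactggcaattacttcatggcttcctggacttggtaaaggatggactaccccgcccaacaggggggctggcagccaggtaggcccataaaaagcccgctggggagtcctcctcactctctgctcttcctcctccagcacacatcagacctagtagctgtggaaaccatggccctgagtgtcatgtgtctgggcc
Muc1 promoter, chr3:89228806-89229105, plus strand: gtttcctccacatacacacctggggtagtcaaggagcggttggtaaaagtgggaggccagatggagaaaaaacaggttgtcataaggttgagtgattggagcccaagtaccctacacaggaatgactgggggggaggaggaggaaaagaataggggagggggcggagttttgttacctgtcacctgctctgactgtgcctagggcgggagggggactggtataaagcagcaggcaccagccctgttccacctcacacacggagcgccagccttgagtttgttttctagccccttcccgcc
Muc4 promoter, chr16:32735636-32735935, plus strand: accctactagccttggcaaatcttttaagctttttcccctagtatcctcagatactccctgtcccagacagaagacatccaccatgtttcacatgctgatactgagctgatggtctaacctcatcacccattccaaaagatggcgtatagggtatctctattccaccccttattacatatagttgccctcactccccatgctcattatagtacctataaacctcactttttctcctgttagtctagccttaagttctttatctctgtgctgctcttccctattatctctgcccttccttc
Ltf promoter, chr9:111019042-111019341, plus strand: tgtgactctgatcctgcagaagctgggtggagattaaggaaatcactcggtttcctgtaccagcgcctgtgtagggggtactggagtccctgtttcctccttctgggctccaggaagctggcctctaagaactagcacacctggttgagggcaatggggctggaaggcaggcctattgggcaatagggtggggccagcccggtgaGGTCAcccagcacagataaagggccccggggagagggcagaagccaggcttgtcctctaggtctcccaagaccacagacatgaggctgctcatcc
Pigr promoter, chr1:130826434-130826733, plus strand: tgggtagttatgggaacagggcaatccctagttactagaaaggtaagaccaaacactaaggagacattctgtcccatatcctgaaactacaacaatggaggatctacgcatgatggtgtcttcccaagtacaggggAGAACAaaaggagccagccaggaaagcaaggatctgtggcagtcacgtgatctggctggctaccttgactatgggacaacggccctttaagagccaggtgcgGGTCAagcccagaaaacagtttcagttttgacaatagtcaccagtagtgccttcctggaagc

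RefSeq held a promoter for all 7 genes. The full palindromic estrogen response element, with both half-sites, was in none of the 7 windows and in 0.07% of 32851 promoters of the same length. The half-site GGTCA began 45 bases before the start of Ltf, 242 and 168 bases before that of C3, 12 bases before that of Pigr and 210 bases before another start site of Olfm1. It was in 40.5% of all promoters. Lcn2, Muc1 and Muc4 had neither half-site in this window, and TGTTCT was in 19% of all promoters. Of the other motifs searched on both strands, TATAAA was in C3, Muc1 and Muc4 and in 13.6% of promoters, TTCNNNGAA was in Pigr and in 8.3%, and an NF-kB motif was in none of the 7 and in 8.46%. A match is a description of letters, and a window without a match says nothing of the factor.

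Levels differed most between libraries for Lcn2, whose highest CPM was 54.6 times its lowest, and for Muc4, at 44.3 times. The ratio was 9.59 for Ltf, 7.16 for Pigr, 7 for Muc1, 5.62 for Olfm1 and 2 for C3. The SD of Lcn2 over the 7 libraries, on the quantile-normalized log2 scale, was larger than that of 99.5% of tested genes, and that of C3 larger than that of 51.2%. The CPM in these ratios are scaled by TMM factors as well. In this bulk tissue, fewer epithelial cells and less RNA per cell cannot be told apart.

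**Figure D1:**
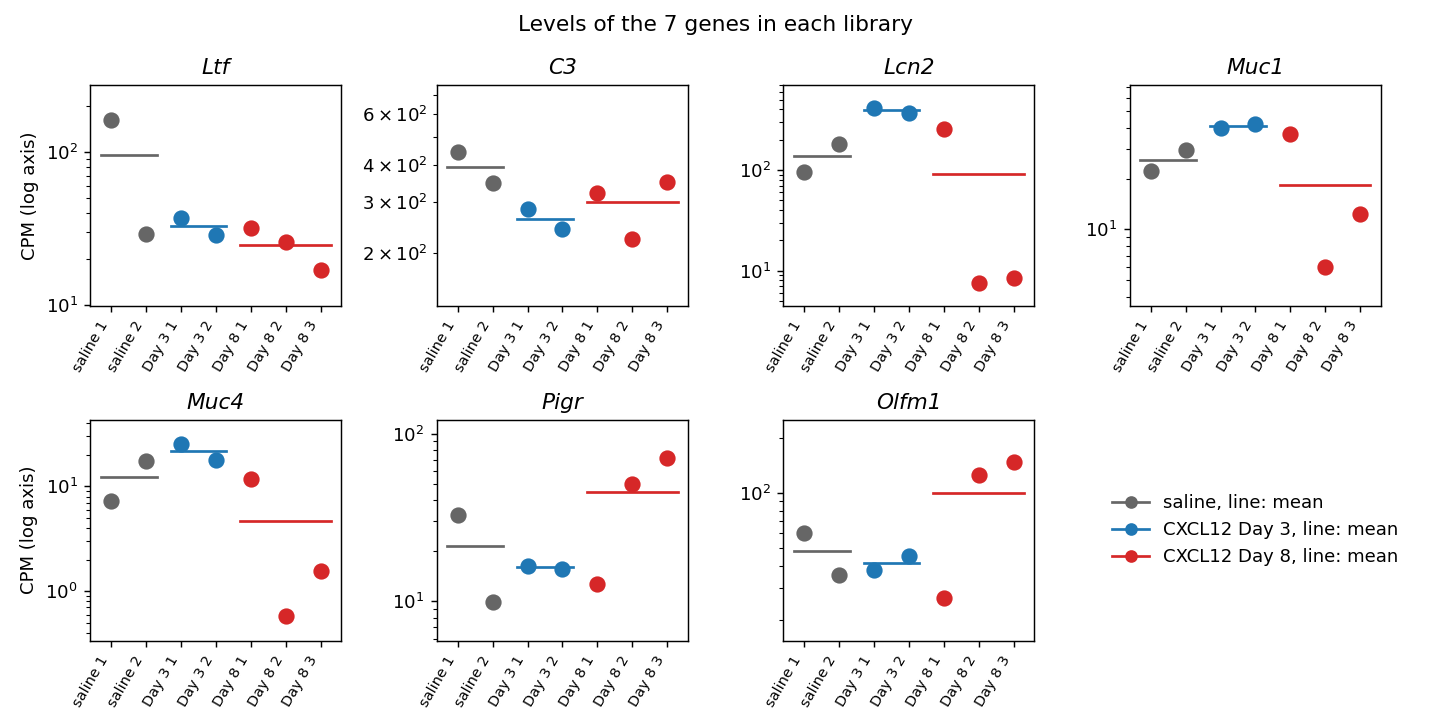
CPM of each gene (log axis, a separate range in each panel) in the 7 libraries, with a point per library and a line at each group's mean. Lcn2 lies at 7.58 and 8.48 CPM in Day 8 replicates 2 and 3 and between 95.7 and 413 CPM in the other libraries.

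Among the secreted antimicrobial proteins, Lcn2 was highest at Day 3. Lcn2 encodes lipocalin 2, which binds the iron carriers of bacteria, and lies at chr2:32384633-32388252 on the minus strand (GRCm38). It measured 95.7 and 180 CPM in the saline libraries, 413 and 369 CPM at Day 3, and 258, 7.58 and 8.48 CPM in Day 8 replicates 1, 2 and 3. Both Day 3 libraries lay above both saline libraries, and all Day 8 libraries lay below both Day 3 libraries. Day 8 replicate 1 alone of the Day 8 libraries lay above the saline libraries. Behind the low values were 92 counts (95% exact Poisson interval 74.2 to 113) and 82 counts (65.2 to 102), intervals that cover counting error only.

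Lcn2 was lower at Day 8 than at Day 3 by a log2 difference of -3.83 (SE 1.32, limma unadjusted P = 0.02, adjusted p = 0.71). That met the threshold with which the study counted its genes (at least a fold of 2, unadjusted P under 0.05), named the study's threshold here. The study's methods also list an FDR of 0.1, which the Lcn2 difference did not meet. Against saline, the Day 8 difference was -0.60 (SE 1.38, edgeR quasi-likelihood adjusted p = 0.97). Without Day 8 replicate 1 it was -4.10 (edgeR unadjusted P = 7.9e-05, adjusted p = 0.087). The Day 3 difference from saline was 1.37 (SE 1.45, limma adjusted p = 0.75), and without Day 8 replicate 1, which enters the estimate of the spread, it was 1.35 (limma unadjusted P = 0.0029, adjusted p = 0.48). In edgeR the estimate compares mean levels, which replicate 1 dominates, and in limma it compares mean log2 values, by which Day 8 lay -2.46 from saline (limma adjusted p = 0.7).

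Ltf encodes lactoferrin, an iron-binding milk and uterine fluid protein that is a classical estrogen target, and lies at chr9:111019271-111042767 on the plus strand. It measured 161 CPM in saline replicate 1 and 29.3 CPM in saline replicate 2. The Day 3 libraries held 37 and 28.7 CPM, and the Day 8 libraries 31.8, 25.9 and 16.8 CPM. Saline replicate 1 stood above every other library, of which Day 3 replicate 1 was the next highest, and the other 6 libraries overlapped across groups. Ltf met the study's threshold at Day 8 against saline with a log2 difference of -1.93 (SE 0.65, edgeR unadjusted P = 0.02, adjusted p = 0.96). Without saline replicate 1 the difference was -0.24 (edgeR unadjusted P = 0.6), and without Day 8 replicate 3 it was -1.72 (edgeR unadjusted P = 0.051), so the call rested on these libraries. At Day 3 the difference from saline was -1.14 (SE 0.75, limma adjusted p = 0.64), and without saline replicate 1 it was 0.19.

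C3, the central component of the complement cascade, is made and secreted by uterine epithelium under estrogen and lies at chr17:57203970-57228136 on the minus strand. It measured 446 and 347 CPM in saline, 282 and 242 CPM at Day 3, and 321, 223 and 352 CPM at Day 8. The Day 3 libraries lay below both saline libraries, whereas the Day 8 libraries overlapped them. The Day 3 difference of -0.91 (SE 0.31, limma unadjusted P = 0.018, adjusted p = 0.63) was less than a fold of 2. It was -1.27 (limma adjusted p = 0.048) without saline replicate 2, -0.57 (limma unadjusted P = 0.091) without saline replicate 1, and -0.61 (edgeR unadjusted P = 0.075) by edgeR with counts estimated for Day 3 replicate 1. At Day 8 the difference from saline was -0.41 (SE 0.31, edgeR adjusted p = 0.96).

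The membrane mucins followed Lcn2. Muc1, at chr3:89229057-89233381 on the plus strand, measured 22.2 and 29.4 CPM in saline, 39.8 and 42.1 CPM at Day 3, and 36.7, 6.01 and 12.4 CPM at Day 8. Muc4, at chr16:32735886-32782391 on the plus strand, measured 7.21 and 17.6 CPM in saline, 25.5 and 18 CPM at Day 3, and 11.9, 0.576 and 1.55 CPM at Day 8. For both mucins the Day 3 libraries lay above the saline libraries, by a narrow margin for Muc4, and every Day 8 library lay below both Day 3 libraries. The lowest Muc4 value rests on 7 counts (95% exact Poisson interval 2.81 to 14.4).

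At Day 8 against Day 3, Muc4 differed by -3.30 (SE 1.13, limma unadjusted P = 0.019, adjusted p = 0.71) and Muc1 by -1.56 (SE 0.66, limma unadjusted P = 0.045, adjusted p = 0.71), and both met the study's threshold. Without Day 8 replicate 1 the differences were -4.52 (limma adjusted p = 0.049) for Muc4, -2.27 (limma adjusted p = 0.059) for Muc1 and -5.47 (limma adjusted p = 0.0021) for Lcn2. The call of Lcn2 was lost without either Day 3 library or without Day 8 replicate 2 or 3 (limma unadjusted P from 0.06 to 0.07), and that of Muc4 without either Day 3 library (0.051 and 0.083). The call of Muc1 was lost without any one library other than Day 8 replicate 1 (limma unadjusted P from 0.066 to 0.13). None of these 3 calls was made by edgeR on the 6 count libraries, with differences of -1.96 for Muc4, -1.20 for Muc1 and -2.01 for Lcn2. None was made by edgeR on 7 libraries with counts estimated for Day 3 replicate 1 (edgeR unadjusted P from 0.056 to 0.15), nor by limma without a filter on low values (limma unadjusted P from 0.059 to 0.1). Against saline, Day 8 differed by -1.43 (SE 1.08, edgeR adjusted p = 0.96) for Muc4 and by -0.50 (SE 0.68, edgeR adjusted p = 0.96) for Muc1. These differences were, without Day 8 replicate 1, -3.56 (edgeR unadjusted P = 0.0025) and -1.49 (edgeR unadjusted P = 0.014), and both met the threshold. Day 3 differed from saline by 0.94 (SE 1.24, limma adjusted p = 0.8) for Muc4 and by 0.66 (SE 0.72, limma adjusted p = 0.76) for Muc1.

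In the GENCODE annotation the 3′ end of Muc4 overlaps Muc20, another mucin gene on the opposite strand. Muc20 measured 5.01 and 7.24 CPM in saline, 14.3 and 16.4 CPM at Day 3, and 12.5, 0.741 and 0.517 CPM at Day 8. Muc20 met the threshold at Day 8 against Day 3 with a difference of -3.11 (limma unadjusted P = 0.027). The strand used in counting is not given in the sources used here, so reads of Muc4 and Muc20 cannot be told apart.

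Pigr and Olfm1 ran the opposite way. Pigr encodes the polymeric immunoglobulin receptor, which carries immunoglobulin A across the epithelium into the lumen, and lies at chr1:130826684-130852249 on the plus strand. It measured 32.9 and 9.94 CPM in saline, 16.3 and 15.6 CPM at Day 3, and 12.7, 50 and 71.2 CPM at Day 8. Olfm1, which encodes the secreted glycoprotein olfactomedin 1, lies at chr2:28192992-28230736 on the plus strand. It measured 60.2 and 35.3 CPM in saline, 37.9 and 44.9 CPM at Day 3, and 26.4, 125 and 148 CPM at Day 8. For both genes Day 8 replicates 2 and 3 were the highest of the 7 libraries, while Day 8 replicate 1 was the lowest for Olfm1 and second lowest for Pigr, so the Day 8 group overlapped both other groups.

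With the libraries grouped by their labels, neither gene met the threshold in any comparison. At Day 8 against saline the differences were 1.06 (SE 0.77, edgeR adjusted p = 0.96) for Pigr and 1.07 (SE 0.69, edgeR adjusted p = 0.96) for Olfm1. At Day 8 against Day 3 they were 1.14 (SE 0.75, limma adjusted p = 0.75) for Pigr and 0.98 (SE 0.69, limma adjusted p = 0.76) for Olfm1. Without Day 8 replicate 1 the Day 8 differences from Day 3 were 1.88 (limma adjusted p = 0.16) for Pigr and 1.77 (limma adjusted p = 0.062) for Olfm1, and those from saline were 1.51 (edgeR unadjusted P = 0.043) and 1.52 (edgeR unadjusted P = 0.0052). With Day 8 replicate 1 counted as a Day 3 library, Pigr and Olfm1 differed by 2.00 (limma adjusted p = 0.06) and 1.98 (limma adjusted p = 0.018) from Day 3. They were also higher than saline (edgeR unadjusted P = 0.023 and 0.0041), and all 4 differences met the threshold. Day 3 differed from saline by -0.14 for Pigr and -0.20 for Olfm1, and without saline replicate 1 by 0.77 and 0.23. In 2.03% of its 3′ sequence words of 50 bases, Pigr shares sequence with other transcripts, and the counts include reads that aligned to several places. The other 6 genes share none in the transcripts' own orientation, which does not cover the overlap of Muc4 with Muc20 on the opposite strand.

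**Figure D2:**
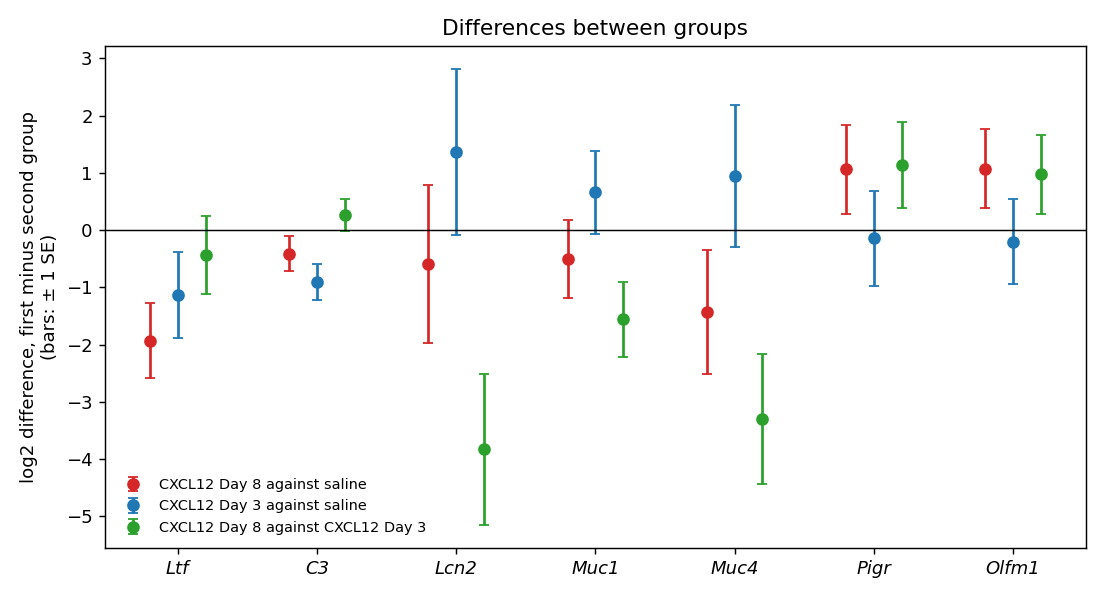
Log2 difference between groups for each gene, with bars of 1 SE, for Day 8 against saline (red), Day 3 against saline (blue) and Day 8 against Day 3 (green). Lcn2, Muc1 and Muc4 lie below 0 at Day 8 against Day 3, and the bars of Pigr and Olfm1 lie above 0 in both comparisons of Day 8.

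Counted over the group, 1 of 7 genes (Ltf, lower) met the threshold at Day 8 against saline, where 2.94% of all tested genes met it. At Day 3 against saline, 0 of 7 did, against 4.62% of all genes. At Day 8 against Day 3, 3 of 7 did (Lcn2, Muc1 and Muc4, all lower), against 4.54%. At an adjusted p under 0.1 no gene at all was called in any of the comparisons, 0% in each, by edgeR and limma. The counts at an unadjusted P under 0.05 were 658, 1131 and 1066 of 15388 genes, and DESeq2 called 49 genes at an adjusted p under 0.1 at Day 8 against saline, none of them among the 7. The count at Day 8 against saline was 6 of 7 genes without Day 8 replicate 1 (Ltf, Lcn2, Muc1 and Muc4 lower, Pigr and Olfm1 higher), where 6.69% of all genes did. At Day 3 against saline 1 of 7 then did (Lcn2, higher, with 5.24% of all genes), and at Day 8 against Day 3 5 of 7 did (Lcn2, Muc1 and Muc4 lower, Pigr and Olfm1 higher, with 11%). Without either Day 3 library, 0 of 7 met it at Day 8 against Day 3. Without saline replicate 1 or Day 8 replicate 3, 0 of 7 met it at Day 8 against saline, and without saline replicate 2, 2 of 7 (Ltf and C3, lower) met it at Day 3 against saline, with 19% of all genes. The libraries of the groups did not overlap for 0 of 7 genes at Day 8 against saline (19.3% of all genes), for 4 of 7 at Day 3 against saline (48.5%) and for 3 of 7 at Day 8 against Day 3 (32.2%). The median difference of the 7 genes was -0.50, -0.14 and -0.44 in these comparisons, and that of all genes -0.01, 0.01 and 0.00. The first value of each set is from edgeR and the others are from limma, so their sizes are not directly comparable. The comparisons share saline or Day 3 or Day 8 libraries and are not independent of each other.

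Over the 7 libraries, which share one normalization, the genes did not vary as one group. Lcn2 correlated with Muc4 at a Pearson r of 0.97 and with Muc1 at 0.96, and Muc1 with Muc4 at 0.98. Pigr correlated with Olfm1 at 0.96, and Lcn2 with Pigr at -0.89 and with Olfm1 at -0.94. Ltf correlated with C3 at 0.68 and with Lcn2 at 0.30. These values describe 7 libraries, in which Day 8 replicates 2 and 3 lie at one end.

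**Figure D3:**
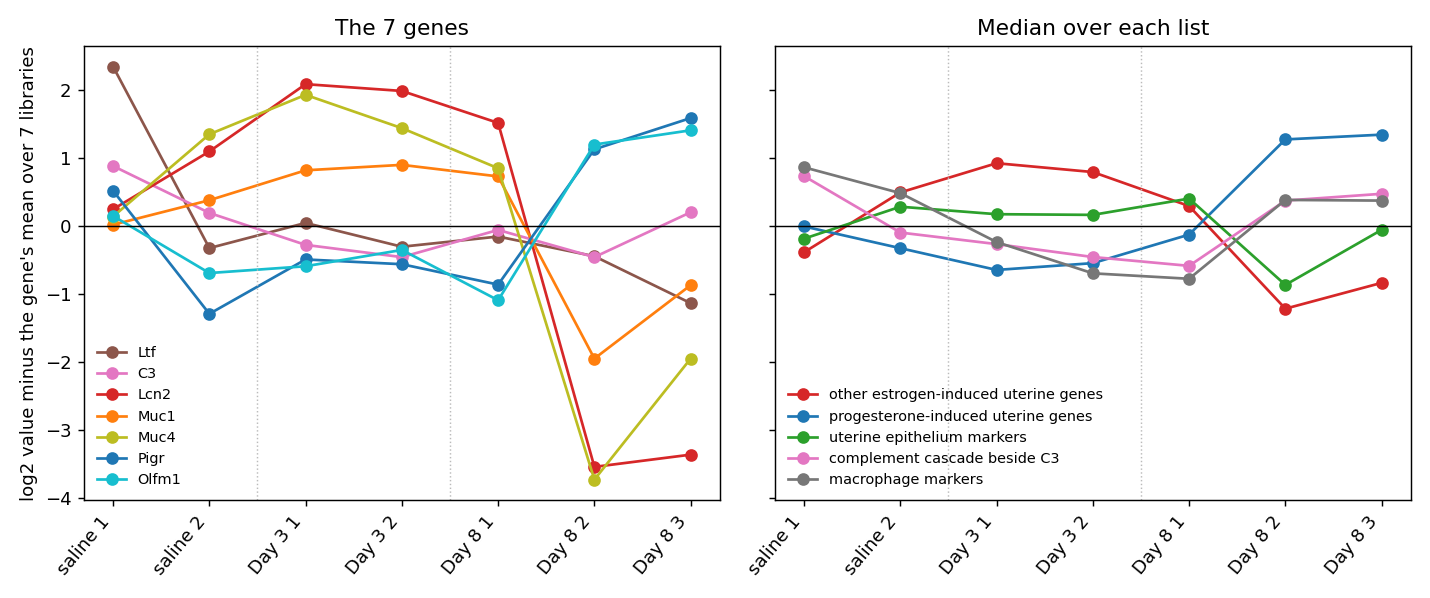
Quantile-normalized log2 value of each of the 7 genes minus its own mean over the libraries (left), and the median of such values over lists of related genes and markers (right), by library. Lines only guide the eye. In Day 8 replicates 2 and 3, Lcn2, Muc1, Muc4 and the list median of the other estrogen-induced genes lie below 0, and Pigr, Olfm1 and the list median of the progesterone-induced genes above 0.

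The genes most like each member were named by Pearson r among 11988 genes over the 7 libraries. For Lcn2 they were Pigw (0.998), Muc20 (0.996) and S100a14 (0.994). For Muc1 they were Ap1m2 (0.995), Sprr2a3 (0.991) and Glis3 (0.991), and for Muc4 Qrsl1 (0.994), Serinc2 (0.992) and Sprr2a2 (0.990). For Pigr they were Prom1 (0.993), Nr1h3 (0.993) and Dpt (0.990), and for Olfm1 Ndrg1 (0.999), Mettl7a1 (0.998) and Ms4a4d (0.994). Ltf was most like Rprd1a (0.997), Pan3 (0.987) and Lpin2 (0.982), and C3 most like Fnbp1l (0.983), Zmym4 (0.981) and Dazap2 (0.979). Between 0.809% and 3.33% of genes reached 0.9 with any one member, so such values are not rare with 7 points. The lowest r was -0.998 for Olfm1 (with Sh2d4a), -0.996 for Pigr (with Hist1h2ad), -0.994 for Ltf (with Myc), -0.993 for Lcn2 (with Cbx7), -0.993 for Muc1 and -0.975 for Muc4 (both with Sfrp4) and -0.990 for C3 (with AI467606).

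Of 22 other tested estrogen-induced uterine genes, at Day 8 against Day 3, 10 met the threshold as lower and 1 as higher (Lrp2, an endocytic receptor), with a median difference of -1.36, against 4.54% of all genes in either direction. Sprr2f, a small proline-rich protein of the epithelial surface, had the smallest P. It measured 268 and 226 CPM in saline, 658 and 561 CPM at Day 3, and 115, 3.29 and 9.10 CPM at Day 8, a difference from Day 3 of -5.23 (limma unadjusted P = 0.0027). Of the 10 genes, 5 belong to the Sprr2 family, whose near-identical copies can share reads. Inhbb, a subunit of activin, met the threshold as lower too, at -1.80, and as higher at Day 3 against saline, at 1.60. The most abundant genes of the list went apart, with Igf1 at -0.64 and Prap1 at 1.57, and neither met the threshold. Without Day 8 replicate 1 the counts were 13 lower and 2 higher, where 11% of all genes were called, and without Day 3 replicate 2 they were 3 lower and 0 higher, where 2.06% were called.

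Against saline, 3 of the 22 genes met the threshold at Day 8, all higher (Aqp8, Clca3a1 and Lrp2), against 2.94% of all genes. The list median was -0.24 and ran from -0.98 to 0.60 over the alternatives. Without Day 8 replicate 1 the counts were 8 lower and 4 higher, where 6.69% of all genes were called. Clca3a1 had the smallest P and measured 1.34 and 2.90 CPM in saline and 2.34, 11.6 and 18.0 CPM at Day 8. At Day 3 against saline 1 of 22 met the threshold, against 4.62% of all genes, with a list median of 1.19.

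Of 14 tested progesterone-induced uterine genes, 4 met the threshold as higher and none as lower at Day 8 against Day 3, with a median of 1.53, against 4.54% of all genes in either direction. Ihh, the hedgehog ligand of the luminal epithelium, measured 3.66 and 2.80 CPM in saline, 0.726 and 0.104 CPM at Day 3, and 2.92, 7.82 and 8.79 CPM at Day 8. Ihh differed by 3.54 (limma unadjusted P = 0.00088) at Day 8 against Day 3. In Day 3 replicate 2 its value lies below the level of 3 counts (0.301 CPM), so the size of this difference rests on very few reads. At Day 8 against saline 3 of 14 met it, all higher, with a median of 1.31, against 2.94% of all genes. Il13ra2, a decoy receptor for interleukin 13, had the smallest P there, with a difference of 3.49 (edgeR unadjusted P = 0.0034). It measured 0.977 and 2.03 CPM in saline and 5.02, 20.3 and 26.1 CPM at Day 8. When Day 8 replicate 1 was left out, 8 of 14 met it as higher and none as lower at Day 8 against Day 3 (11% of all genes), and without Day 3 replicate 2 or Day 8 replicate 3, 1 of 14 met it (2.06% and 3.22%). At Day 3 against saline 1 met it as higher and 2 as lower, against 4.62% of all genes in either direction.

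Of 15 tested steroid receptors, coregulators and steroid enzymes, none met the threshold in either comparison of Day 8 with another group. At Day 3 against saline 1 was higher (Hsd11b2) and 2 were lower (Esr2 and Ncor1), where 4.62% of all genes were called. Esr2 had a low mean level of 3.34 on the quantile-normalized log2 scale. Ovarian markers summed to 167 and 1050 CPM in saline and to 5.28 and 7.57 CPM at Day 3. The part of ovarian tissue in the Esr2 difference was not tested. Hsd11b2, which inactivates glucocorticoids, measured 47.5 and 109 CPM in saline and 184 and 216 CPM at Day 3. Pgr measured 735 and 310 CPM in saline, 355 and 375 CPM at Day 3, and 437, 185 and 245 CPM at Day 8, with overlap between saline and both CXCL12 groups. Esr1 differed from saline by 0.02 at Day 8 and -0.06 at Day 3.

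Around C3, 25 other complement genes were tested. At Day 3 against saline 1 was lower (C4b), against 4.62% of all genes, with a list median of -0.75. At Day 8 against saline 3 were lower (C5ar1, Cfb and Cfd), against 2.94% of all genes, with a median of -0.25. Cfd, factor D of the alternative pathway and also an adipocyte marker, measured 456 and 683 CPM in saline, 1161 and 99.4 CPM at Day 3, and 86.2, 162 and 106 CPM at Day 8. Of 9 adipocyte markers, 7 met the threshold as lower at Day 8 against saline, against 2.94% of all genes. The summed level of the 9 markers was 886 and 2584 CPM in saline, 3106 and 337 CPM at Day 3, and 270 to 412 CPM at Day 8. The part of fat in the Cfd difference was not tested. Macrophage markers summed to 791 and 663 CPM in saline, 447 and 330 CPM at Day 3, and 300, 694 and 730 CPM at Day 8. The part of macrophages in the C3 difference was not tested.

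Of 13 other antimicrobial secretions, 3 met the threshold as higher and 2 as lower at Day 8 against saline, against 2.94% of all genes. The higher ones were Wfdc3, Defb1 and Reg3g, with low mean levels of 4.22, 1.74 and 1.52 on the quantile-normalized log2 scale. The lower ones were the neutrophil proteins S100a8 and S100a9. S100a9 measured 29.1 and 64.6 CPM in saline, 8.51 and 4.35 CPM at Day 3, and 8.29, 6.09 and 6 CPM at Day 8. Wfdc15b, a secreted protease inhibitor, was higher at Day 8 than at Day 3 by 1.20 (limma unadjusted P = 0.0012). Lcn2 is made by neutrophils too, and neutrophil markers summed to 168 and 225 CPM in saline, 168 and 155 CPM at Day 3, and 124, 164 and 192 CPM at Day 8. Of 7 tested neutrophil markers, 3 were called lower at Day 8 against saline, 3 lower and 1 higher at Day 3 against saline, and none at Day 8 against Day 3. The shares of all genes called in these comparisons were 2.94%, 4.62% and 4.54%. The neutrophil markers did not move together, so their sum does not describe each of them. Retnlg, the most abundant, differed from saline by 0.89 at Day 8 and 0.81 at Day 3. Mpo, the marker called higher at Day 3, differed by 2.47 and 4.09. Those called lower were S100a8 and S100a9 in both comparisons with saline, Cxcr2 at Day 8 and Mmp9 at Day 3. The part of neutrophils in the Lcn2 values was not tested.

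Of 10 genes of iron binding and uptake, Lrp2 was higher and Slc40a1 and Tfrc were lower at Day 8 against Day 3, where 4.54% of all genes were called. The 6 tested genes of the immunoglobulin A and plasma cell list were Jchain, Mzb1, Tnfrsf17, Derl3, Sdc1 and Ccl28. The immunoglobulin heavy chains Igha and Ighm were not among the genes tested. Jchain, the chain that joins immunoglobulin A for transport by the Pigr product, stayed between 6.66 and 9.85 CPM. None of the 6 tested genes met the threshold in any comparison. None of the 3 tested olfactomedin relatives of Olfm1 met it. Beside Muc20 and the endothelial mucin Emcn, no other mucin of 14 listed passed the filter on low counts, and Muc5ac, Muc5b, Muc15 and Muc19 had 0 counts in all 6 count libraries, which allows up to 0.434 CPM by counting error.

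Epithelial markers moved with some of the Lcn2 and mucin values. They summed to 808 and 1230 CPM in saline, 1410 and 1368 CPM at Day 3, and 1473, 634 and 1197 CPM at Day 8. Divided by this sum, the mean log2 level at Day 8 against Day 3 differed by -3.52 for Lcn2, -2.87 for Muc4 and -1.13 for Muc1, where the undivided differences were -3.94, -3.29 and -1.55, and the libraries of the groups did not overlap on either scale. Pigr and Olfm1 differed by 1.58 and 1.35 after division and by 1.16 and 0.94 before it. At Day 3 against saline, Muc1 differed by 0.20 after division and 0.68 before it, and Muc4 by 0.45 and 0.93, and the Muc4 libraries of these groups overlapped after division. Lcn2 differed by 1.09 and 1.57 and lay above both saline libraries on either scale. C3 at Day 3 against saline differed by -1.07 after division and -0.59 before it, and lay below both saline libraries on either scale.

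**Figure D4:**
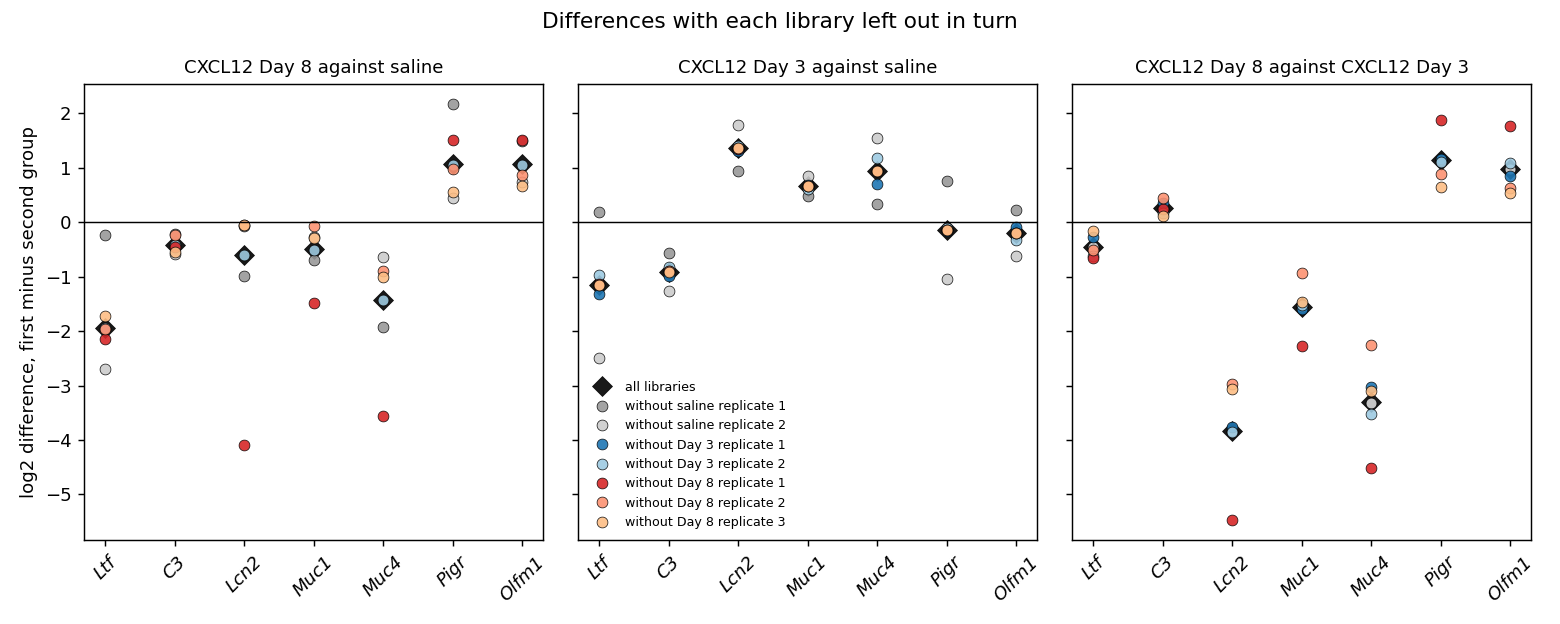
Log2 difference of each gene in the 3 comparisons with all libraries (black diamonds) and with each library left out in turn (coloured points). Leaving out Day 8 replicate 1 moved Lcn2 at Day 8 against saline from -0.60 to -4.10, and leaving out saline replicate 1 moved Ltf from -1.93 to -0.24.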

How the data were processed

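RNA was prepared from uterine tissue and libraries were made with the QuantSeq 3′ kit. The authors used Bowtie2 for alignment and Bedtools for counting, with reads of several alignments included. Their processing notes list edgeR and the builds hg19 and mm10, without versions, and the strand of counting is not given in the sources used here. Of the deposited tables, 6 list raw read counts by gene symbol. The values deposited for Day 3 replicate 1 are normalized counts on a log2 scale. After undoing the log and a factor of 1.0535, 97.6% of 2914 low values were within 0.1 of a whole number. Rows without a name, 2028 in 6 of the tables, were left out.

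For Day 8 against saline, edgeR 4.0.16 was used (quasi-likelihood, TMM, filterByExpr, 3 groups, 3 residual degrees of freedom) on the 6 count libraries. As 1 Day 3 library has no counts, Day 3 was compared with saline and Day 8 by limma 3.58.1 (trend, 4 residual degrees of freedom) on log2(value + 1) of the 7 libraries, after scaling to a common size and quantile normalization, a scale that understates changes of low genes. SE in edgeR was the log2 difference divided by the square root of F. The threshold for calls was that of the study's gene count (fold 2, unadjusted P 0.05). A Benjamini-Hochberg adjusted p of 0.1, the FDR cutoff that the study's methods also list, was applied separately. Simulated counts of the 6 count libraries were used to try the tests at Day 8 against saline only. The limma fits of the 7 libraries used for the comparisons with Day 3 were not simulated. DESeq2 1.42.0 (R 4.3.3) was an alternative. The common biological coefficient of variation was 42.2%, and totals of 6908790 to 12308982 counts set the precision. Coordinates are those of GENCODE M21 (GRCm38, the same assembly as mm10).

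The members and the lists of related genes were chosen with earlier results of these data known. Genes were named by a rule: all 7 members, for each list the 2 most abundant genes and the gene with the smallest P in each comparison, for marker lists the 2 most abundant, and for each member the genes of most and least similar pattern. Other genes named to spell out a small count, and Esr1, were chosen after their values were seen. Alternatives are described in the closing section. The counts of lists under these alternatives and the division by epithelial markers were added after the data were seen.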

Additional observations from a re-analysis of the deposited data

How the results depend on the processing

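With all libraries grouped by their labels, none of the 7 genes had an adjusted p under 0.1 in the 3 comparisons by any alternative run. Directions reversed at Day 3 against saline without saline replicate 1, for Ltf (0.19), Pigr (0.77) and Olfm1 (0.23), where without saline replicate 2 the values were -2.49, -1.05 and -0.62. Over the leave-one-out fits the genes called at fold 2 and unadjusted P 0.05 ran from 229 to 1527 at Day 8 against saline (453 with all libraries), from 270 to 2919 at Day 3 against saline (711) and from 271 to 1699 at Day 8 against Day 3 (699). Genes called at an adjusted p under 0.1 ran from 0 to 15, from 0 to 2308 and from 0 to 465 (0 with all libraries). With Day 8 replicate 1 counted with Day 3, the counts were 1094 and 58 at Day 8 against saline and 1843 and 1363 at Day 8 against Day 3, and Lcn2 differed by -4.10 (edgeR adjusted p = 0.019) and -5.31 (limma adjusted p = 0.0002). In the latter comparison Muc4 (-4.25), Muc1 (-2.23), Olfm1 (1.98) and Pigr (2.00) then had limma adjusted p = 0.014, 0.016, 0.018 and 0.06. DESeq2 called 49 genes at an adjusted p under 0.1 at Day 8 against saline. Without a filter on low values limma called 36 and 28 genes at Day 3 and at Day 8 against Day 3. With edgeR on the 6 count libraries 323 and 325 genes were called in these comparisons. The cause of these moves was not tested.

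The share of called genes that were higher at Day 3 against saline was 43.7%, but 21.2% by edgeR with counts estimated for Day 3 replicate 1, 20.4% by edgeR on the 6 count libraries and 10.3% of 1088 genes with library-size scaling alone, which moved the median of all genes to -0.27. At Day 8 against Day 3 it was 47.9%, but 68% and 62.5% by the 2 edgeR fits. No member changed direction with scaling. Groups share replicate numbers, and same-numbered libraries had deviations that correlated between -0.15 and -0.01, and neither these values nor the labels show that the numbers pair the samples. Whether they mark horns of one animal is not stated. With the replicate block the counts were 157, 598 and 442, and the calls of Ltf at Day 8 against saline (-1.26, edgeR unadjusted P = 0.091), of Lcn2 (-3.05, limma unadjusted P = 0.05) and of Muc1 (-1.47, limma unadjusted P = 0.09) at Day 8 against Day 3 were lost.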

Other observations

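Gene groups outside the epithelial secretions also set the libraries apart. Smooth muscle markers summed to 2429 and 1610 CPM in saline, 3221 and 3673 CPM at Day 3, and 1960, 4266 and 4089 CPM in Day 8 replicates 1 to 3. Of these 6 markers, 2 met the threshold as higher at Day 8 against saline, against 2.94% of all genes. Oviduct markers summed to 429 CPM in Day 8 replicate 3 and to between 503 and 965 CPM in the other libraries. The median over the 6 markers of the log2 value minus the gene's mean was -3.03 in that replicate. It lay between -0.15 and 1.03 in the other libraries. Stromal markers ranged from 8477 to 15894 CPM and endothelial markers from 146 to 282 CPM, and none of the 8 and 6 genes met the threshold in any comparison. Liver markers stayed between 1.66 and 8.69 CPM in sum.

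Some genes of other function shared the pattern of Lcn2 or Olfm1. S100a14, a calcium-binding protein of epithelia, measured 5.38 and 11 CPM in saline, 15.8 and 13.1 CPM at Day 3, and 11.2, 0.741 and 0.828 CPM at Day 8. Ndrg1, which responds to hypoxia and hormones in many tissues, measured 42.5 and 22.3 CPM in saline, 24.0 and 31.0 CPM at Day 3, and 16.1, 91.6 and 116 CPM at Day 8. For both, as for Lcn2 and Olfm1, Day 8 replicate 1 lay apart from the other Day 8 libraries.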
